A study of Mus musculus with 14 samples.

Results

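The erythroid microRNAs miR-451a, miR-144 and miR-486 were followed in small RNA libraries from mouse macrophages and from the exosomes they released. Members were the lines of the deposited count table named mmu-miR-451a, mmu-miR-144-3p or mmu-miR-144-5p, together with every line whose name held miR-486a or miR-486b (mmu-miR-486a-3p, mmu-miR-486b-3p and the joined mmu-miR-486a-5p=mmu-miR-486b-5p). This gave 6 of the 1250 lines. The joined line is called miR-486-5p here. The separate lines of miR-486a-3p and miR-486b-3p held equal counts in 14 of 14 libraries, so they were taken as 1 measurement, called miR-486-3p, which leaves 5 distinct measurements.

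The 14 libraries fell into 4 groups. They were 4 of exosomes from control cells, 4 of exosomes from cells stimulated with interleukin 4 (IL4, a cytokine that drives macrophages into an alternatively activated state), 3 of control cell lysates and 3 of lysates from IL4-stimulated cells. The labels call the control cells wild type, give bone marrow as their source and excised bone as the tissue, and state neither age, strain, IL4 dose nor length of stimulation. Exosomes, small vesicles released into the culture medium, were purified from the supernatant on an OptiPrep density gradient. Each title carries a date. The exosome pairs were dated 29 December, 25 January, 16 March and 5 April, and the lysate pairs 23 January, 14 March and 21 March, so no date is shared between the compartments. The compartment and the date therefore cannot be told apart. Nothing in the labels tells whether replicate libraries stem from different mice or dishes. The p-values thus reflect only how far these libraries scatter, and that scatter may be technical.

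Exosome libraries held 28417 to 411671 counts and lysate libraries 3941480 to 6792079. One count was worth 35.2 CPM (a line's count over the library total, scaled to 1000000) in the smallest exosome library and 0.147 in the largest lysate library. Lines for miR-203, an epithelial miRNA, took 9.28% of the counts in the control exosomes and 19.4% in the IL4 exosomes of 25 January, against 0.0326% to 3.53% in the other 6 exosome libraries. As a sum, myeloid miRNAs were abundant in every group: the 7 lines listed for that lineage summed to 29349 to 41970 CPM in control exosomes, 17409 to 22078 in IL4 exosomes, 31561 to 34847 in control lysates and 12815 to 19552 in IL4 lysates. The lines differed widely. In control exosomes miR-223-3p averaged 20895 CPM and miR-511-3p 29.3 CPM.

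MicroRNAs are short RNAs that guide Argonaute proteins to messenger RNAs through their seed, the bases near the 5′ end, and lower the output of those messengers. miR-144 and miR-451a are cut from one primary transcript that GATA1 activates as red cells mature, and miR-451a is among the most abundant miRNAs of the red cell. Its hairpin is too short for Dicer and is cleaved by Argonaute 2 instead, so the mature strand runs from the 5′ stem into the loop. miR-486 lies within Ank1, the gene of the red-cell membrane protein ankyrin, and is found in erythroid cells and muscle.

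The mature sequences are shown because their seeds keep the 3 products of one cluster apart. Sequences came from RefSeq on GRCm38.p6, where 3 of the 6 lines had an entry, and are written 5′ to 3′ with the seed, bases 2 to 8, in capitals.
miR-451a: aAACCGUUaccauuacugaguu
miR-144-3p: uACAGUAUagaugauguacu
miR-144-5p: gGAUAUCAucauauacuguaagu
The 22 bases of miR-451a lie at chr11:78073186-78073207, the 20 of miR-144-3p at chr11:78073047-78073066 and the 23 of miR-144-5p at chr11:78073010-78073032, all on the plus strand. None of the 3 seeds was shared with another of 1679 mature names in that table. With bases 2 to 7 alone, miR-144-3p shared its seed with miR-101a-3p, which stood at 2359 ± 767 CPM (SD, n = 4) in control exosomes and 1830 ± 1188 (SD, n = 3) in control lysates.

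The hairpins are shown because they set miR-144, which gives a strand from each arm, beside miR-451a, which gives only one. Mature strands are in capitals.
Mir144: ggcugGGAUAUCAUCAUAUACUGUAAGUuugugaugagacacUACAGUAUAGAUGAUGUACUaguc
Mir451a: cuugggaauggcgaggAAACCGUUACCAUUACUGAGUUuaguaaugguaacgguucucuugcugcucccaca
Mir144 (66 bases) lies at chr11:78073005-78073070 and Mir451a (72 bases) at chr11:78073170-78073241, with 99 bases between them. In the GENCODE M21 annotation of GRCm38 neither overlaps a protein-coding gene. Mir451b is annotated over Mir451a on the minus strand, and the nearest coding gene, Eral1, is also on the minus strand, 135 bases from Mir451a and 306 from Mir144. Mir486 (128 bases) is annotated at chr8:23142555-23142682 on the plus strand, inside an intron of Ank1. Mir3107, the locus of miR-486b, lies opposite it on the minus strand together with the antisense gene Gm15816. The 2 miR-486 loci face each other, so reads of their near-identical products cannot be assigned to one locus.

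All 5 erythroid measurements were far higher in exosomes than in lysates, in control and in IL4 samples. miR-451a alone made up 1.82% to 3.12% of the counts of control exosome libraries and 1.31% to 1.96% of those of IL4 exosomes, and it was among the 17 most abundant lines of every exosome library. In lysates it ranked no better than 241st. Summed with miR-486-3p counted once, the 5 measurements made up 2.96% to 5.54% of the counts in control exosomes and 2.18% to 3.06% in IL4 exosomes. In control lysates they made up 0.0120% to 0.0217% and in IL4 lysates 0.0124% to 0.0155%.

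miR-451a, which lowers Ywhaz and protects red cells from oxidative damage, stood at 31249, 24108, 24268 and 18154 CPM in control exosomes 1 to 4. In IL4 exosomes 1 to 4 it stood at 13711, 14388, 19571 and 13137 CPM. Control lysates 1 to 3 held 23.6, 8.83 and 19.1 CPM, and IL4 lysates 5.64, 15.5 and 7.20. Every exosome library was above every lysate library, and the lowest exosome value was 768 times the highest lysate value in control samples and 849 times in IL4 samples. The lysate values rest on 33 to 136 counts, so even the lowest, 5.64 CPM, has an exact 95% Poisson interval of 3.88 to 7.92 CPM, which covers counting error only because sequencing reads are not independent molecules. On the scale of edgeR's trimmed-mean normalisation (TMM) the log2 fold change of exosomes over lysates was 9.74 (SE 0.56, adjusted p = 1.35e-08) in control samples and 9.93 (SE 0.56, adjusted p = 1.19e-08) in IL4 samples by the quasi-likelihood test. The difference was 857-fold in control samples and 975-fold in IL4 samples. miR-451a had the smallest p of the 338 lines tested in both comparisons, and the 10th and 11th largest log2 fold change. It passed the filter on low counts, given below, through the exosomes alone, so its p-values and ranks are a description only.

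**Figure D1:**
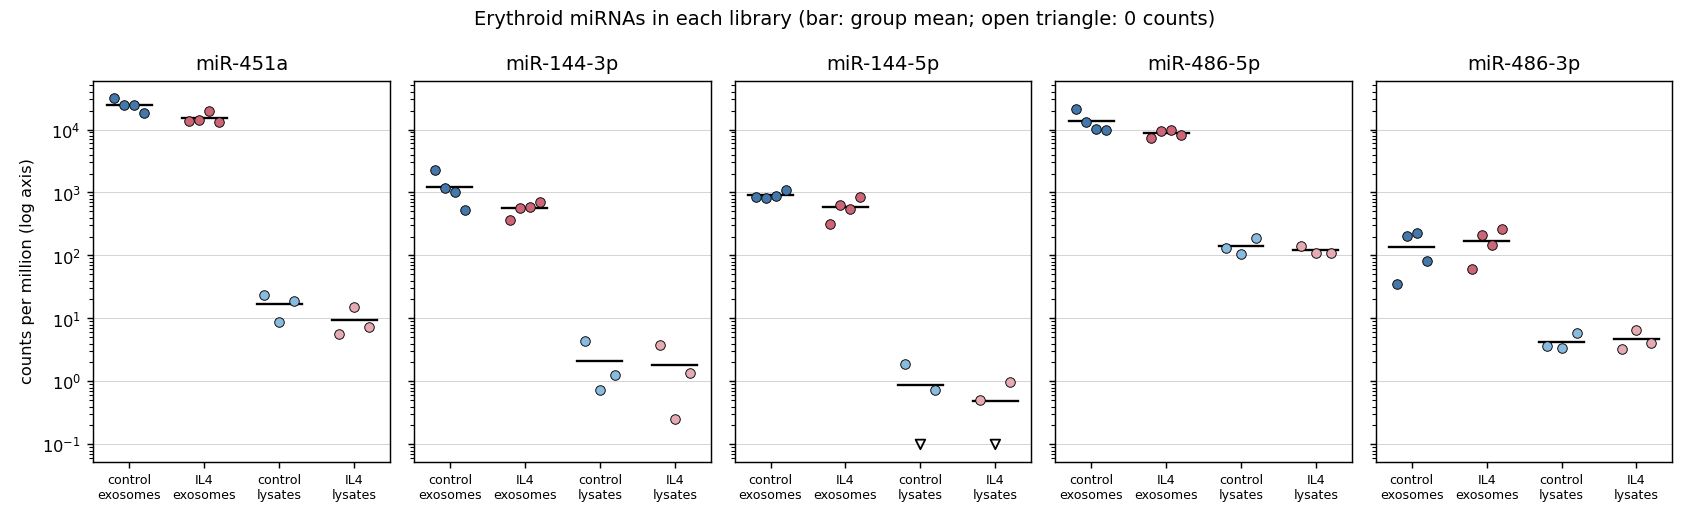
CPM of the 5 erythroid measurements in each of the 14 libraries, on a log axis, with replicates in order within a group. Bars are group means and open triangles mark libraries with 0 counts. Every exosome library lies above every lysate library in all 5 panels, and miR-451a changes from 18154 to 31249 CPM in control exosomes to 8.83 to 23.6 CPM in control lysates.

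miR-144-3p, the strand that restrains the antioxidant regulator Nrf2, stood at 2252, 1158, 1035 and 519 CPM in control exosomes and at 360, 563, 598 and 717 CPM in IL4 exosomes. In lysates it was at 4.35, 0.736 and 1.27 CPM in controls and 3.76, 0.254 and 1.36 CPM with IL4. One control exosome library, that of 25 January, held the highest value, and the lysate dated 23 January held the highest value in each lysate group. The compartments did not overlap. The log2 fold change was 8.50 (SE 0.83, adjusted p = 2.00e-06) in control samples and 7.62 (SE 0.80, adjusted p = 5.51e-06) in IL4 samples by edgeR's quasi-likelihood test.

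miR-144-5p, the other strand of that hairpin, stood at 845, 809, 894 and 1094 CPM in control exosomes and at 320, 643, 549 and 847 CPM in IL4 exosomes. It had 11, 0 and 4 counts in control lysates and 3, 0 and 5 in IL4 lysates. A count of 0 allows up to 0.442 CPM in the control library and 0.761 CPM in the IL4 library, on a limit of 3 counts. The exosome values again lay above every lysate value, and exosomes over lysates gave 9.28 on the log2 scale (SE 0.89, adjusted p = 1.90e-06) in control and 9.33 (SE 0.91, adjusted p = 2.43e-06) in IL4 samples by edgeR. The fold rests on few lysate counts, 15 in the pooled controls and 8 in the pooled IL4 lysates.

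miR-486-5p, which is known to lower Foxo1, stood at 20973, 13277, 10124 and 9760 CPM in control exosomes. In IL4 exosomes it stood at 7395, 9579, 9748 and 8328 CPM. It was the member best detected in lysates, at 132.5, 107.0 and 189.8 CPM in controls and 141.6, 111.4 and 110.2 CPM with IL4. The compartments did not overlap, and the log2 fold change was 5.78 (SE 0.39, adjusted p = 4.37e-08) in control and 5.50 (SE 0.39, adjusted p = 1.07e-07) in IL4 samples by edgeR, which is 55.1-fold and 45.3-fold.

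miR-486-3p, the minor strand, stood at 35.2, 202, 226 and 82.0 CPM in control exosomes and at 60.0, 214, 148 and 261 CPM in IL4 exosomes. Those values rest on as few as 1 count, in the control library of 25 January. In lysates it held 3.65, 3.39 and 5.81 CPM in controls and 3.25, 6.60 and 4.09 CPM with IL4. It was the least raised member, at 4.27 on the log2 scale (SE 0.64, adjusted p = 0.000113) in control and 4.47 (SE 0.64, adjusted p = 8.49e-05) in IL4 samples by edgeR.

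All 5 measurements were thus called higher in exosomes in both comparisons, where 29.3% of the 338 lines tested were called higher in control samples and 30.2% in IL4 samples. Exosome values lay wholly above lysate values for 27.2% and 28.7% of lines. The filter on low counts asked for 32.7 CPM in at least 3 libraries. miR-486-5p met it in 6 of 6 lysates, while the other 4 measurements met it in 8 of 8 exosome libraries and in 0 lysates. Those 4 thus entered the test through the exosomes, where they are high. Their p-values and ranks above, and the count of called members, are a description only. Since depth differed between compartments, 28417 counts were also drawn from each library, the total of the smallest. miR-451a then had 382 to 888 counts in exosomes and 0 or 1 in lysates, miR-486-5p had 215 to 596 against 1 to 5, and both miR-144 strands had 0 counts in all 6 lysates.

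The scale matters for weaker changes. With plain library totals in place of TMM the median of all lines moved to 0.63 and 0.68, and the calls moved from 99 higher and 73 lower to 126 higher and 16 lower in control samples, while the share of higher lines among those called moved from 61.1% to 91.4% in IL4 samples. The 5 erythroid measurements stayed called under that scaling, with miR-451a at 10.48 and 10.66 and miR-486-3p lowest at 5.14 and 5.21. In bulk samples, fewer cells of a type and less RNA per cell cannot be told apart.

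The other miRNAs known from maturing red cells had calls in both directions between the compartments. Their list held 18 lines, of which many are also expressed in leukocytes, and 17 were tested. In control samples 1 was higher in exosomes and 6 were lower, with a median log2 fold change of -0.60. In IL4 samples 3 were higher and 7 lower, with a median of -0.61. Under plain library totals these counts became 4 higher and 1 lower in control samples and 5 and 0 in IL4 samples, with medians of 0.17 and 0.08, so the list has no direction that holds under both scalings. The line that was higher in both was miR-363-3p, of the miR-106a cluster, with log2 fold changes of 6.46 (SE 1.19) and 4.22 (SE 1.06). Its level was only 52.7 ± 48.0 CPM (SD, n = 4) in control exosomes and 0.266 ± 0.152 (SD, n = 3) in control lysates. The largest negative values among called lines were those of miR-103-3p (-1.53, SE 0.23) in control samples and miR-210-3p, a hypoxia-induced miRNA, in IL4 samples (-1.51, SE 0.33).

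miR-16-5p, which is abundant in red cells and in leukocytes, was picked out after its values were seen. It stood at 9480 ± 2666 CPM (SD, n = 4) in control exosomes and at 9526 ± 1453 (SD, n = 3) in control lysates. Its log2 fold change was -0.84 (SE 0.25, adjusted p = 0.0101, edgeR) under TMM and -0.0016 under library totals. Its call thus depended on the scaling, which was not so for miR-451a.

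miRNAs that hold red-cell maturation back or decline along it gave 2 lines higher and 3 lower of 9 tested in each comparison, with medians of 0.38 and -0.06. The higher lines in control samples were miR-150-5p (5.40, SE 0.59) and miR-9-5p (3.33, SE 0.90), and the largest negative value was that of miR-221-3p (-1.02, SE 0.27), which targets the receptor Kit. Under plain library totals 2 and 3 lines were higher and 0 lower. The 7 myeloid lines gave 0 higher and 4 lower in control samples and 1 higher and 2 lower in IL4 samples under TMM. Under library totals they gave 1 higher and 0 lower, and 3 higher and 1 lower. The myeloid marker miR-223-3p had -0.89 (SE 0.19) and -0.22 (SE 0.19) under TMM, and -0.09 and 0.42 under library totals.

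**Figure D2:**
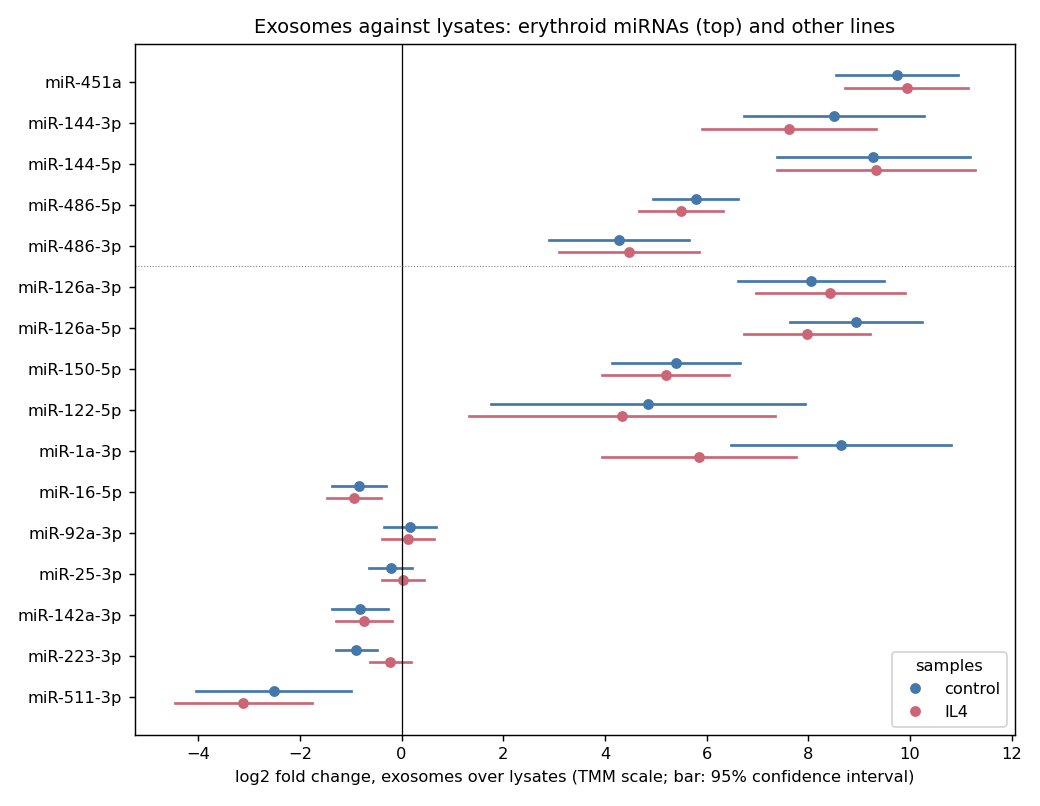
Log2 fold change of exosomes over lysates (TMM scale) with its 95% confidence interval from edgeR's quasi-likelihood fit of 14 libraries, for control samples (blue) and IL4 samples (red). The 5 erythroid measurements above the dotted line lie between 4.27 and 9.93, beside miR-126a, miR-150-5p, miR-122-5p and miR-1a-3p on the same side. From the other red-cell list only miR-16-5p, miR-92a-3p and miR-25-3p are drawn, and they lie near 0 or below. Its lines called higher are not drawn. These were miR-363-3p (6.46 and 4.22) and, in IL4 samples, miR-182-5p (1.84) and miR-183-5p (1.76).

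Lists of markers of cell types other than macrophages held lines that were called higher in exosomes, in part or in full. Over all lines tested the share called higher was 29.3% in control and 30.2% in IL4 samples. Lines under the filter's 32.7 CPM in every lysate, among them miR-126a-3p and miR-205-5p, entered the test through the exosomes alone. The list counts are thus a description only. Both strands of the endothelial and platelet miRNA miR-126a were called higher, 2 of 2 in each comparison: miR-126a-3p had log2 fold changes of 8.04 and 8.43, and miR-126a-5p 8.94 and 7.98. Summed, the pair ran from 6862 to 27546 CPM in control exosomes and 4097 to 15918 in IL4 exosomes, against 27.4 to 33.9 and 13.4 to 32.6 in lysates. The lymphocyte marker miR-150-5p was higher, at 5.40 and 5.20. It was the only tested line of 2 in its list, which summed to 656 to 1865 and 639 to 1385 CPM in exosomes and to 26.1 to 38.1 and 22.2 to 33.0 in lysates.

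Of the epithelial list of 7, 2 of 5 tested were higher in each comparison, and miR-200b-3p and miR-200c-3p had -0.57 and -0.33 in control samples without a call. The list summed to 849 to 48879 and 360 to 105033 CPM in exosomes against 221 to 267 and 161 to 200 in lysates, and its defining marker miR-205-5p was at 0 in all 6 lysates. Stromal lines gave 3 higher and 1 lower of 5 tested in control samples and 4 higher in IL4 samples, from sums of 10253 to 20743 and 6456 to 15782 in exosomes against 3605 to 4455 and 2466 to 3595 in lysates. The stromal line called lower was miR-140-3p, at -0.89 (SE 0.27, adjusted p = 0.0118, edgeR), and it was called under neither library totals nor DESeq2. Muscle lines, led by miR-1a-3p (8.64 and 5.85), gave 3 and 2 higher of 3 tested. They summed to 437 to 3363 and 352 to 680 CPM in exosomes and to 1.56 to 6.63 and 3.89 to 13.7 in lysates, with miR-206-3p at 0 in both control groups. Liver, gut and serum lines, led by miR-122-5p (4.85 and 4.33), gave 2 and 1 higher of 3 tested, and summed to 1340 to 12983 and 1877 to 8279 CPM in exosomes and 187 to 427 and 153 to 549 in lysates. The part of any of these cell types in the erythroid result was not tested.

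Ratios within a library need no scaling between libraries. The ratio of miR-451a to miR-23a-3p, which serves as a haemolysis measure in blood plasma, averaged 0.37 ± 0.49 on the log2 scale in control exosomes and -0.32 ± 0.50 in IL4 exosomes (SD, n = 4). It averaged -9.96 ± 0.61 in control lysates and -10.64 ± 0.77 in IL4 lysates (SD, n = 3). The 2 miRNAs were near equal in exosomes and far apart in lysates, a difference of 10.33 among controls and 10.32 with IL4. Against miR-223-3p the difference was 10.67 and 10.31. For these ratios the exact permutation test, two-sided, gave p = 0.0286 in each comparison, the smallest that 4 against 3 libraries allow. Over the 20 ratio tests that is an adjusted p of 0.0952, so no ratio could pass 0.05 unless 12 or more of the 20 reached that minimum.

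Against the endothelial and platelet miR-126a-3p, which was itself high in exosomes, the compartments lay closer together. The log2 ratio of miR-451a to it averaged 1.20 ± 1.14 in control exosomes, 1.08 ± 0.76 in IL4 exosomes, -0.74 ± 0.85 in control lysates and -0.65 ± 1.41 in IL4 lysates. The differences were 1.94 and 1.73 (exact permutation test, two-sided, p = 0.0571 in both, adjusted p = 0.143). Among exosome libraries the ratio was highest on 25 January, at 2.58 and 2.08, and lowest on 16 March, at 0.13 and 0.36.

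Within the erythroid set the order of levels differed between the compartments. One read covers a whole mature miRNA, so CPM needs no correction for length, though capture by the ligation-based kit can differ between sequences. In both exosome groups miR-451a was highest, then miR-486-5p, then the miR-144 strands, then miR-486-3p. By group means in lysates, miR-486-5p was highest, then miR-451a, then miR-486-3p, and the miR-144 strands came last. The lysates of 23 January departed from that order, with miR-144-3p above miR-486-3p in the control library (4.35 against 3.65 CPM) and in the IL4 library (3.76 against 3.25 CPM). The neighbours miR-144-3p (1241 ± 729 CPM) and miR-144-5p (910 ± 127 CPM) did not differ beyond their spread in control exosomes (SD, n = 4), and neither did 559 ± 148 and 590 ± 219 CPM in IL4 exosomes.

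The turn between miR-486-5p and miR-451a was seen in each library. The log2 ratio of miR-486-5p to miR-451a was -0.57, -0.86, -1.26 and -0.89 in control exosomes and -0.89, -0.59, -1.01 and -0.66 in IL4 exosomes. It was 2.48, 3.59 and 3.31 in control lysates and 4.63, 2.84 and 3.92 in IL4 lysates. All 8 exosome libraries held more miR-451a and all 6 lysates held more miR-486-5p, a difference of -4.02 among controls and -4.58 with IL4 (exact permutation test, two-sided, p = 0.0286 in both, adjusted p = 0.0952). The ratio was thus 16.3 and 23.9 times lower in exosomes. The ratio of miR-144-3p to miR-451a, 2 products of one transcript, differed by -1.22 (exact permutation p = 0.0857, adjusted p = 0.190) and -2.02 (exact permutation p = 0.2, adjusted p = 0.333). Its IL4 lysate values of -0.57, -5.36 and -2.32 rest on 22, 1 and 7 counts of miR-144-3p.

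**Figure D3:**
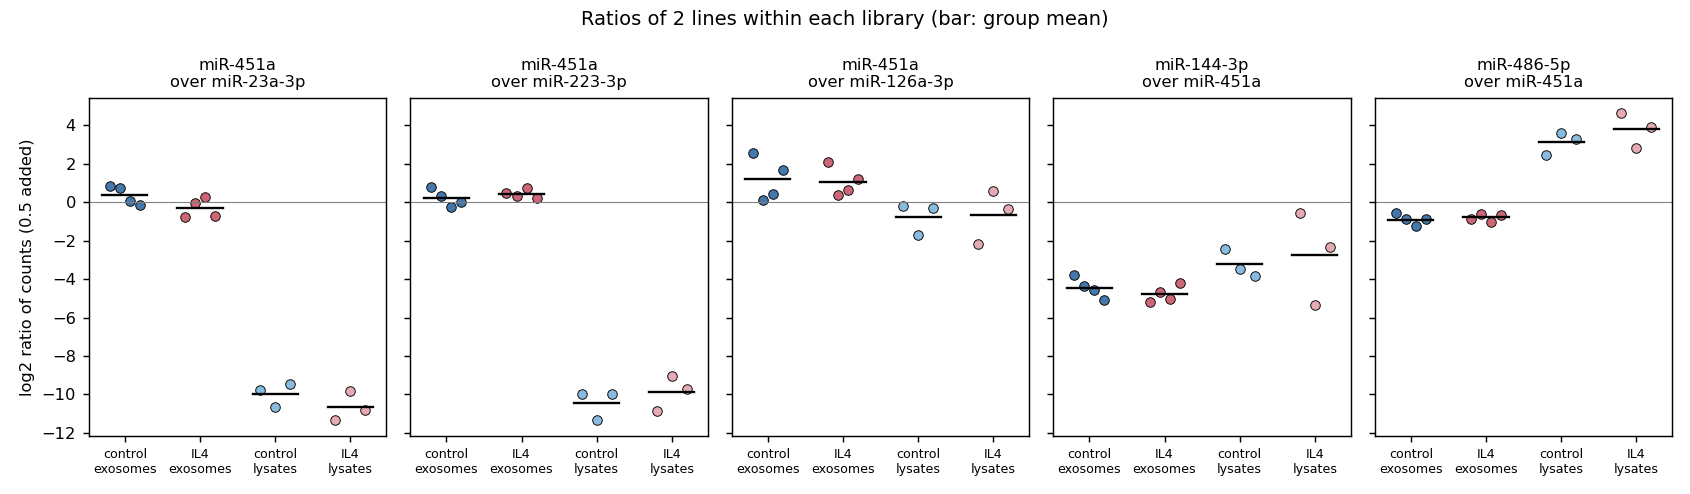
Log2 ratio of 2 lines within each library, with 0.5 added to each count, for 5 ratios. Points are libraries and bars group means. miR-451a is near miR-23a-3p and miR-223-3p in exosomes and about 10 units of log2 below them in lysates, and the ratio of miR-486-5p to miR-451a is below 0 in all 8 exosome libraries and above 0 in all 6 lysates.

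The strands of each hairpin were compared as the share of the 3p strand in the counts of both strands. Pooled over libraries, miR-144-3p made up 55.2% (exact 95% binomial interval 51.2 to 59.1) in control exosomes, 50.4% (46.7 to 54.1) in IL4 exosomes, 71.2% (56.9 to 82.9) in control lysates and 78.9% (62.7 to 90.4) in IL4 lysates. The lysate shares rest on 52 and 38 counts. Control exosome libraries were spread out, at 72.7%, 58.9%, 53.6% and 32.2% for replicates 1 to 4, where replicate 1 has an interval of 62.2 to 81.7 and replicate 4 one of 20.6 to 45.6. IL4 exosome libraries lay between 45.8% and 52.9%. Both strands of miR-144 were thus well represented in exosomes. For miR-486 the 3p strand made up 1.60% (1.22 to 2.05) and 1.71% (1.40 to 2.08) in control and IL4 exosomes, and 2.91% (2.30 to 3.63) and 3.47% (2.70 to 4.40) in lysates, and at most 5.59% in any library. These intervals pool libraries, so they cover counting error and not the spread between replicates.

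**Figure D4:**
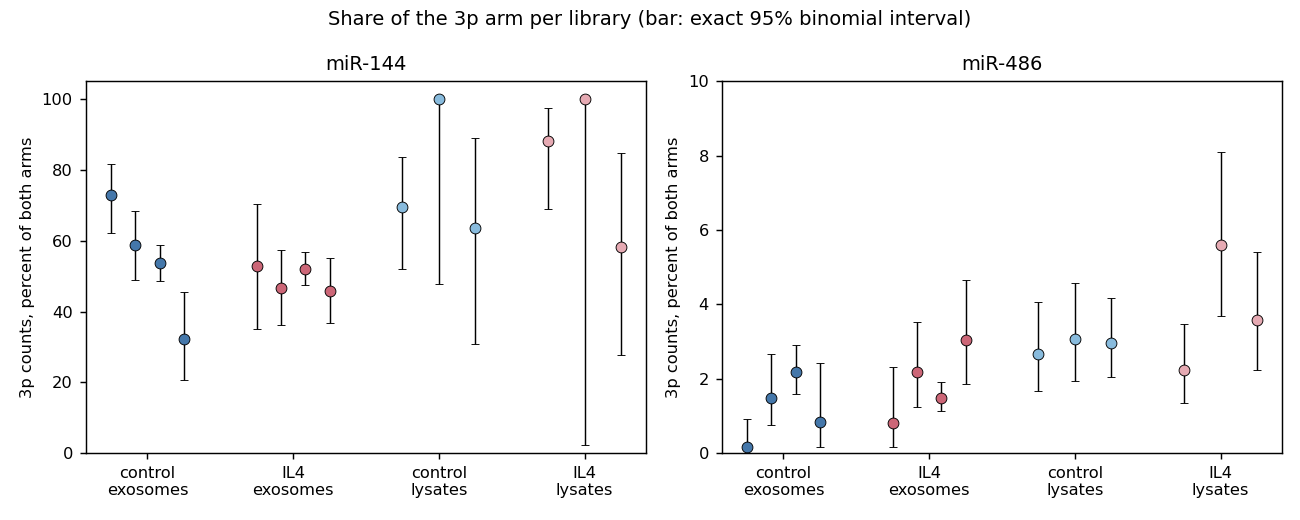
Share of the 3p strand in the counts of both strands of miR-144 (left) and miR-486 (right) for each library, with exact 95% binomial intervals. For miR-144 the control exosome libraries spread from 32.2% to 72.7% and lysate intervals are wide; for miR-486 the share reaches at most 5.59%, with the lowest value, 0.168%, in control exosomes of 25 January.

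Stimulation with IL4 gave lower exosome values for 4 of the 5 measurements, and none passed the test. Most lines went the same way: only 41.2% of the 182 lines tested had a log2 fold change above 0. The mean of miR-451a was 24445 ± 5355 CPM in control and 15202 ± 2958 CPM in IL4 exosomes (SD, n = 4), with overlap, since IL4 exosome 3 (19571 CPM) lay above control exosome 4 (18154 CPM). Its log2 fold change of IL4 over control was -0.54 (SE 0.23, 95% interval -1.06 to -0.01, unadjusted p = 0.0451, adjusted p = 0.684, edgeR's quasi-likelihood test). miR-144-3p had -0.99 (SE 0.43, unadjusted p = 0.0431, adjusted p = 0.684), miR-144-5p -0.49 (SE 0.31, adjusted p = 0.804) and miR-486-5p -0.49 (SE 0.28, adjusted p = 0.804) in that fit. miR-486-3p had 0.37 (SE 0.57, adjusted p = 0.862).

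Of the 5, edgeR called 0 and DESeq2 called 0, and 2 had an unadjusted p under 0.05. Over the 182 lines tested, edgeR called 1 (0.549%) and 12 had an unadjusted p under 0.05. The median over all lines was -0.09, against -0.49 over the 5 measurements. In plain CPM the groups did not overlap for miR-486-5p alone, by a margin narrower than counting error: the highest IL4 library was at 9748 CPM and the lowest control library at 9760, with a 95% Poisson interval of 8774 to 10827. Wholly lower IL4 values were found for 3.3% of lines. On the TMM scale used for the test the groups overlapped for all 5 measurements, and 2.2% of lines lay wholly lower.

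Paired by date in plain CPM, miR-451a was lower with IL4 at 4 of 4 dates, with IL4 values 0.439 to 0.806 of the control value. miR-144-5p (0.379 to 0.795) and miR-486-5p (0.353 to 0.963) were likewise lower at 4 of 4, as were 28.6% of the 182 lines. miR-144-3p was lower at 3 of 4, with ratios of 0.160, 0.486, 0.577 and 1.38, and miR-486-3p at 1 of 4. On the TMM scale miR-451a (0.510 to 0.884) and miR-144-5p (0.440 to 0.943) were lower at 4 of 4 dates, as were 17.6% of lines, while miR-486-5p was lower at 3 of 4, with a ratio of 1.06 on 5 April. The lowest CPM ratio of miR-451a, miR-144-5p, miR-486-5p and miR-144-3p was on 25 January, where the control library holds the highest miR-451a, miR-144-3p and miR-486-5p of all and the miR-203 lines take their largest share. Without that control library the log2 fold change was -0.19 for miR-451a, -0.35 for miR-144-3p, -0.34 for miR-144-5p and 0.02 for miR-486-5p. With both libraries of that date left out, a setting chosen after the data were seen, the values were -0.29, -0.33, -0.27 and -0.06. With the miR-203 lines removed, also a setting chosen after the data were seen, edgeR called 1 of 181 lines and none of the erythroid ones. Beyond that fit, the part of the miR-203 counts in these differences was not tested.

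**Figure D5:**
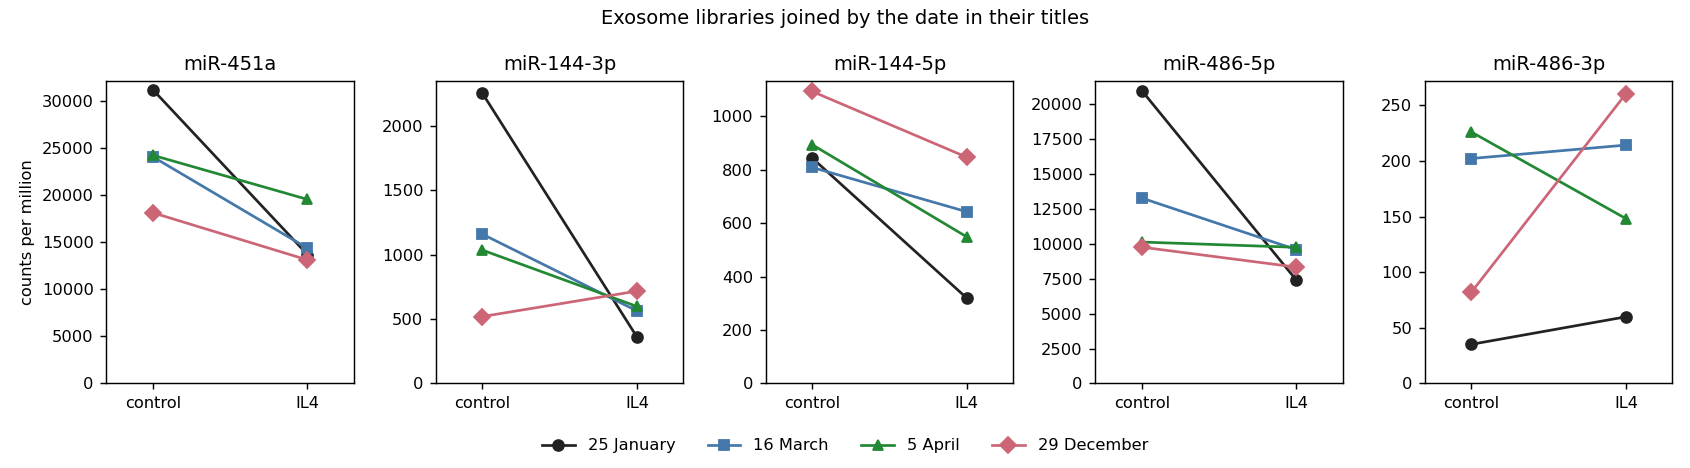
CPM of the 5 erythroid measurements in the 8 exosome libraries, with the control and IL4 library of each title date joined by a line; each panel has its own linear axis from 0. The steepest line of miR-451a, miR-144-3p and miR-486-5p belongs to 25 January, and miR-486-3p lies lower with IL4 at 1 of 4 dates.

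By edgeR no line of the marker lists or of the other red-cell list was called with IL4 in exosomes. For the 15 tested lines of the other red-cell list, 0 were called by edgeR and by DESeq2, 0 had an unadjusted p under 0.05, and the median was -0.17. The lines restraining red-cell maturation gave 0 of 7 (1 by DESeq2, 1 with an unadjusted p under 0.05, median -0.43) and the myeloid lines 0 of 6 (1 by DESeq2, 2 with an unadjusted p under 0.05, median -0.52), with miR-223-3p at -0.75 (SE 0.20, adjusted p = 0.216). Values of -0.47 (SE 0.50) for miR-126a-3p, -0.64 (SE 0.46) for miR-126a-5p and -0.46 (SE 0.34) for miR-150-5p lay beside the -0.54 of miR-451a, and miR-122-5p was at -0.85 (SE 0.68). The epithelial miR-203-3p and miR-205-5p had values of the other sign, 1.07 (SE 1.49) and 1.95 (SE 1.79). The lymphocyte, endothelial, epithelial, stromal, muscle and liver, gut and serum lists had 0 calls of 12 tested lines by either tool and 0 with an unadjusted p under 0.05. Apart from the fit without the miR-203 lines, the part of these markers in the erythroid values was not tested.

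The within-library ratios of miR-451a gave no call with IL4 either. Its log2 ratio to miR-23a-3p differed by -0.70 between IL4 and control exosomes (exact permutation test, two-sided, p = 0.143, adjusted p = 0.286), that to miR-223-3p by 0.21 (exact permutation p = 0.457, adjusted p = 0.571) and that to miR-126a-3p by -0.12 (exact permutation p = 0.886, adjusted p = 0.932).

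In lysates the IL4 fold change of miR-451a on the log2 scale was -0.64 (SE 0.46, adjusted p = 0.745, edgeR), miR-486-5p -0.05 (SE 0.25, adjusted p = 0.978) and miR-486-3p 0.31 (SE 0.46, adjusted p = 0.868). The 95% interval of miR-486-5p ran from -0.64 to 0.53. The miR-144 strands did not pass the filter on low counts in that fit. With no filter miR-144-3p was at -0.0064 (adjusted p = 0.997) and miR-144-5p at -0.45 (adjusted p = 0.929) by edgeR, on 37 and 15 pooled counts in control and 30 and 8 in IL4 lysates. Of the 3 tested measurements, 0 were called by edgeR or DESeq2 and 0 had an unadjusted p under 0.05, where 32 of 443 lines (7.22%) were called, 26 higher and 6 lower. Under plain library totals 8 were higher and 6 lower. With the title date as a block 50 lines were called, and 0 of the 3. miR-451a was lower with IL4 at 2 of 3 lysate dates, and the IL4 lysate of 14 March held the highest value of its group, 15.5 CPM.

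Several listed lines changed in lysates while the erythroid ones did not pass. Of the myeloid lines 1 rose and 3 fell of 7: miR-511-3p, from an intron of the mannose receptor gene, rose by 1.42 (SE 0.23, adjusted p = 0.0117), and miR-146a-5p fell by 2.26 (SE 0.44, adjusted p = 0.0224), miR-223-5p fell by 2.11 (SE 0.26, adjusted p = 0.00754) and miR-223-3p fell by 1.24 (SE 0.17, adjusted p = 0.00754) in edgeR's test. Of the 16 other red-cell lines tested 1 fell, miR-182-5p, by 0.96 (SE 0.23, adjusted p = 0.0407), with 3 calls by DESeq2, 3 with the title date as a block and 0 under plain library totals. Of the 9 restraining lines miR-9-5p rose by 2.45 (SE 0.54, adjusted p = 0.0316) and miR-223-3p, already named, fell. Under plain library totals miR-182-5p (adjusted p = 0.0657, edgeR) and miR-9-5p (adjusted p = 0.0531) were no longer called. When 1 of the 6 lysates was left out, both strands of miR-223 were called each time, and miR-511-3p each time but without control lysate 2 (adjusted p = 0.0802, edgeR). The call of miR-146a-5p was lost without control lysate 2, IL4 lysate 2 or IL4 lysate 3 (adjusted p 0.0802 to 0.106), and miR-182-5p and miR-9-5p were called only without IL4 lysate 1. The other lists had 0 calls by either tool, with 2 of their 22 tested lines at an unadjusted p under 0.05.

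The effect of IL4 in exosomes was set against that in lysates within 1 fit of all 14 libraries. The difference between the effects was 0.19 (SE 0.52) for miR-451a, -0.88 (SE 0.89) for miR-144-3p, 0.05 (SE 0.60) for miR-144-5p, -0.28 (SE 0.43) for miR-486-5p and 0.20 (SE 0.81) for miR-486-3p. The lysate part of the miR-144 values rests on the few counts just given, and these strands entered the fit through the exosomes alone, so their differences are barely measured. miR-451a and miR-486-3p also entered through the exosomes alone, and only miR-486-5p met the filter in lysates. Of the 5, 0 were called by edgeR or DESeq2 and 0 had an unadjusted p under 0.05. Of 338 lines 0% were called, and 14 had an unadjusted p under 0.05. For miR-451a the 95% interval of the difference ran from -0.92 to 1.29, so the data did not set the 2 effects apart and do not show them equal.

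Lines with a pattern most like that of miR-451a were ranked by Spearman's rho in log2 CPM on the TMM scale. Over all 14 libraries the first 5 of the 338 lines, members left out, were miR-335-5p, miR-411-3p, miR-150-5p, miR-382-3p and miR-382-5p. Exosomes and lysates form separate clusters there, so no pooled coefficient is given. All 5 were called higher in exosomes in both comparisons by edgeR, where 29.3% and 30.2% of all lines tested were. Their log2 fold changes were 5.40 to 9.82 in control samples. The ranking itself follows the compartments, and all 5 stood under the filter's 32.7 CPM in every lysate. Their calls are thus a description only. miR-411-3p, miR-382-3p and miR-382-5p come from the imprinted Dlk1-Meg3 region.

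Over the 8 exosome libraries the first 5 of 182 lines were miR-18a-5p (rho 1, Pearson's r 0.82), miR-150-5p (0.90 and 0.78), miR-382-3p (0.81 and 0.75), miR-93-5p (0.81 and 0.75) and miR-100-5p (0.79 and 0.83). miR-93-5p was called lower in exosomes than in lysates, at -0.73 (SE 0.17, adjusted p = 0.00204) and -0.62 (SE 0.17, adjusted p = 0.00667) by edgeR, but stood at 0.04 and 0.0078 under plain library totals with no call. In control samples miR-18a-5p, of the miR-17 cluster, was at -0.63 (SE 0.36, adjusted p = 0.152) by edgeR, and with IL4 at -1.42 (SE 0.36, adjusted p = 0.00476), which became -0.80 (adjusted p = 0.174) under plain library totals. Among the members, miR-144-3p had rho 0.67 and r 0.81, miR-486-5p 0.64 and 0.84, miR-144-5p 0.07 and 0.26, and miR-486-3p -0.52 and -0.66. Without the 2 libraries farthest from the median of miR-451a, control exosome 1 and IL4 exosome 4, rho was 1 for miR-18a-5p, 0.77 for miR-150-5p, 0.66 for miR-382-3p, 0.60 for miR-93-5p and 0.49 for miR-100-5p. Among the members it was then 0.77 for miR-144-3p, 0.26 for miR-486-5p, 0.43 for miR-144-5p and 0.14 for miR-486-3p, whose r also turned positive, at 0.14. These are ranks over 8 libraries that share scaling and shallow depth, among 182 lines, and are given as a description.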

How the data were processed

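The authors deposited 1 table of raw counts per mature miRNA for 14 libraries, made with the NextFlex small RNA kit per the labels' protocols. The submitters' processing notes name cutadapt and mm10. For aligner, counter and annotation: not given in the sources used here. Columns were matched to samples by title.

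Differences were tested on the deposited counts in R 4.3.3 with edgeR 4.0.16 (filterByExpr, TMM, quasi-likelihood test, Benjamini-Hochberg threshold 0.05). The compartments were compared in 1 fit of 14 libraries, and IL4 within each compartment. DESeq2 1.42.0, library-size scaling, no filter, thinning to 28417 counts, the date as a block, leaving out libraries and removing the miR-203 lines were alternatives. The test was tried on simulated counts. Within-library log2 ratios (0.5 counts added) were compared by exact permutation in Python 3.11.15. The Poisson and binomial intervals were computed with scipy 1.17.1. CPM are counts over a library's total, scaled to 1000000, without TMM except where the TMM scale is named.

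Libraries of one title date deviated together to differing degrees (correlations 0.46, 0.19, 0.72 and 0.27 in exosomes, and 0.61, 0.26 and 0.28 in lysates), so dates pair the samples. The IL4 tests and ratio tests above left this pairing out, except where the date is named as a block. Members and lists were chosen with earlier results of these data known. Named lines were the members, the ratio partners, up to 4 lines a list and the 5 nearest to miR-451a in rank correlation. Of the stromal list 6 of 7 lines were matched.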

Additional observations from a re-analysis of the deposited data

How the results depend on the processing

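The 5 erythroid measurements stayed called in exosomes against lysates under every alternative that tested them and none was called with IL4 or in the difference of effects under any; after thinning, miR-486-3p was not tested. Only miR-486-5p met the filter in lysates, so the calls of the others are a description only. miR-451a ranged from 9.30 to 10.48 in control and from 9.73 to 11.79, its value after thinning, in IL4 samples. After thinning miR-451a had 0 counts in every IL4 lysate, so the 11.79 is not a measured fold. Both miR-144 strands then had 0 counts in every lysate. Of 350 recomputed log2 fold changes of members 336 kept their direction and side of the threshold and 14 reversed; of 170 ratios 161 did and 9 reversed. The cause of each reversal was not tested.

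Lines called with IL4 in exosomes (1) became 0 under library-size scaling, 6 with DESeq2, 12 with no filter and 0 to 2 when 1 library was left out (0 without control exosome 2, control exosome 3 or IL4 exosome 3, and 2 without control exosome 4 or IL4 exosome 1). In lysates (32) they became 14 under library-size scaling, 4 in 1 fit of 14 libraries, 50 with the date as a replicate block and 2 to 34 when 1 library was left out (2 without control lysate 2, 7 without IL4 lysate 2, 10 without IL4 lysate 3 and 13 without control lysate 3). The block changed no call of an erythroid measurement. It moved no other count here by over 1.5 times, apart from the lysate lines called (50 in place of 32) and the other red-cell list in lysates (3 calls in place of 1). Fewer counts left 64 and 61 lines called between the compartments after thinning, in control and IL4 samples. The difference of the IL4 effects had 3 calls with no filter.

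Reversed values were -0.76 for miR-144-5p and 0.28 for miR-486-5p in the difference of IL4 effects after thinning. The thinned lysates held 0 counts of miR-144-5p in every library, so its -0.76 is not a measured difference. They held 1 to 5 counts of miR-486-5p. Without both libraries of 25 January, a setting chosen after the data were seen, miR-486-5p also reversed in that difference, to 0.080. When 1 library was left out, log2 fold changes with IL4 ranged as follows. In exosomes miR-486-5p ran from -0.50 to 0.018. In lysates miR-486-3p ran from -0.016 to 0.60 and miR-486-5p from -0.21 to 0.22. In the difference of effects miR-144-3p ran from -1.71 to 0.21, miR-144-5p from -0.97 to 1.04, and miR-486-3p from -0.19 to 0.69. For ratios, IL4 against control, miR-451a over miR-126a-3p lay at -0.48 to 0.34 among exosomes and -0.53 to 0.86 among lysates, miR-486-5p over miR-451a from -0.0083 to 0.22 in exosomes, and miR-144-3p over miR-451a from -0.61 to 1.78 in lysates. TMM-scaled library sizes moved 9 of 20 mean CPM by more than 1 SD. Depth limits the miR-144 strands in lysates most, at 0 to 25 counts a library.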
